A study of Mus musculus with 2 samples.

Results

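Collagen chains were taken as the genes whose symbol is Col, a number, the letter a and a number, such as Col1a1 or Col8a2, and which have at least 1 probe set carrying that symbol alone. There were 42 such genes with 82 probe sets, among 18193 genes with a probe set of their own symbol. The members were taken by name and not by their signal, but they were chosen with earlier results of these data known. The data are 2 expression arrays of the mouse osteosarcoma line MOS-J. The DKK1 group is 1 array of MOS-J cells that received human DKK1 by lentivirus, and the control group is 1 array of MOS-J cells that received a control lentivirus, per the labels. DKK1 is a secreted inhibitor of canonical Wnt signalling. The protocols shared by both groups describe growth in alpha-MEM with serum, a lentiviral route with G418-resistant clones, a plasmid route with blasticidin selection, and later labelling of mitochondria with a red fluorescent protein. The sources used here do not settle which route gave the profiled cells, or whether each sample was a single clone. With 1 array per group no value has a replicate error and no test was possible, so every difference compares these 2 arrays and not the conditions.

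Collagens are secreted proteins of 3 chains wound into a helix built from short repeats that each begin with glycine. Fibrillar chains assemble into the striated fibrils that give bone and tendon their tensile strength, and type I collagen, made of Col1a1 and Col1a2 products, is the main protein of bone matrix. Network chains form sheets in basement membranes and around cells, type VI chains form beaded filaments, and fibril-associated chains decorate the surface of fibrils. Chains are hydroxylated and folded in the endoplasmic reticulum, trimmed outside the cell, and crosslinked by enzymes of the lysyl oxidase family.

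Values are MAS5 signals on a linear scale, where MAS5 is an Affymetrix method that reduces the probes of a probe set to 1 number. A probe set entered as measured if its signal, averaged over both arrays, was at least 71.3, the median of such averages on this array type. Differences are between log2(signal + 16.6) values, DKK1 minus control, averaged within a gene over the probe sets that were measured. The added 16.6 draws the differences of dim genes towards 0. A gene was called where its difference was at least 1 on this log2 scale, which is 2-fold, with the same sign in every measured probe set. The median over all signals was 78.6 on the DKK1 array and 62.6 on the control array. For Gapdh, the ratio of 3' to 5' signal, which reflects RNA integrity, was 0.759 on the DKK1 array and 0.823 on the control array, and for Actb it was 1.25 on the DKK1 array and 1.61 on the control array. The part of RNA quality in the collagen values was not tested.

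The labelled cell type was checked against markers of bone cells and of other cells. Of 8 osteoblast markers, 4 were measured. Alpl, the bone alkaline phosphatase, had a signal of 182 on the DKK1 array and 147 on the control array. Sp7, a transcription factor of osteoblasts, had 117 on the DKK1 array and 87.0 on the control array, little above the filter. Ibsp and Dmp1 were below it, Phex was at 1.97 on the DKK1 array and 200 on the control array, and Bglap and Spp1 were not analysed here. The summed signal of the osteoblast markers was 8318 on the DKK1 array and 4316 on the control array. Most of it came from Col1a1, itself a collagen chain. Its probe sets had 6263 and 1699 on the DKK1 array, against 2150 and 1640 on the control array. The sum therefore says little about the other bone markers. Cartilage markers were sparse, with Sox9 and Comp measured of 6 and Acan, Col2a1, Matn1 and Hapln1 below the filter. Sox9 averaged 401 on the DKK1 array and 457 on the control array, above Alpl and Sp7. Comp had 84.3 on the DKK1 array and 59.0 on the control array. Of 5 endothelial probe sets, 4 were below the filter on both arrays, and the leukocyte markers Ptprc and Adgre1 were not measured. The endothelial marker Kdr was measured, at 116 on the DKK1 array and 66.0 on the control array. The leukocyte marker Csf1r averaged 164 on the DKK1 array and 117 on the control array. Cd68 had 127 on the DKK1 array and 86.4 on the control array. These signals were close to those of Alpl and Sp7. The summed signal of the 6 leukocyte markers was 893 on the DKK1 array and 750 on the control array. Lyz2 was called higher and Laptm5 lower, each with a signal below the filter on 1 array. With that signal raised to the filter, Lyz2 was at least 1.91-fold higher and Laptm5 at least 1.59-fold lower in DKK1 cells. The summed signal of the 4 epithelial markers was 633 on the DKK1 array and 418 on the control array. Epcam had 264 on the DKK1 array and 226 on the control array in its measured probe set, and its other probe set was dim. Cdh1 and Krt18 were not measured. The muscle list had a summed signal of 30792 on the DKK1 array and 7387 on the control array. Nearly all of it came from smooth muscle actin, Acta2, while Myod1, Myog and Des were not measured. The 4 fibroblast markers summed to 5479 on the DKK1 array and 3071 on the control array, but the members went both ways. Pdgfra, a growth factor receptor, was called higher at 1.201, while decorin, Dcn, which binds collagen fibrils, had 6.73 on the DKK1 array and 1345 on the control array, at least 18.9-fold lower in DKK1 cells. Its other probe set was below the filter, and Thy1 and Lum were not measured. The part of these markers in the collagen values was not tested.

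Of the 42 collagen genes, 23 were measured. In the DKK1 cells 8 of them were called higher (Col8a2, Col4a6, Col6a1, Col27a1, Col12a1, Col11a1, Col4a5 and Col9a1) and 1 was called lower (Col18a1), while 14 were not called. Called higher were 34.8% of the measured collagens, against 11.7% of all 11058 measured genes, and 6.91% of all measured genes were called lower. The median collagen difference was 0.59 and that of all measured genes 0.10. Since the deposited signals were scaled array by array, the sign of the collagen median depended on that scaling. It was 0.96 when the arrays were scaled on hybridisation controls, where the median of all genes was 0.46, and −0.021 when scaled on poly-A controls, where the median of all genes was −0.52. Relative to the median of all genes, the collagen median was higher under the reported setting and each of the 11 alternatives, by 0.18 to 0.70. Median centring and scaling on spike-in controls shift all genes by nearly the same amount. They could therefore hardly change this gap, which was 0.49 as reported and with median centring, 0.51 with the hybridisation and 0.50 with the poly-A controls. Every setting used the same 2 arrays. The split of calls was 8 higher and 1 lower as reported, 11 and 1 with the hybridisation controls, and 2 and 1 with the poly-A controls. Over all measured genes 21.6% were called higher and 3.45% lower with the hybridisation controls, and 4.26% and 24.1% with the poly-A controls. Passing the filter favours genes that are bright on 1 array. Of the measured probe sets, 4 were below the filter on the control array and above it on the DKK1 array, those of Col8a2, Col9a1 and Col22a1 and 1 of Col4a6, and none the other way round. With both arrays required to pass, 20 collagen genes were left, 6 called higher and 1 lower, with a median of 0.51. Of all 10326 genes left at that setting, 9.11% were called higher and 6.23% lower, with a median of 0.071.

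**Figure D1:**
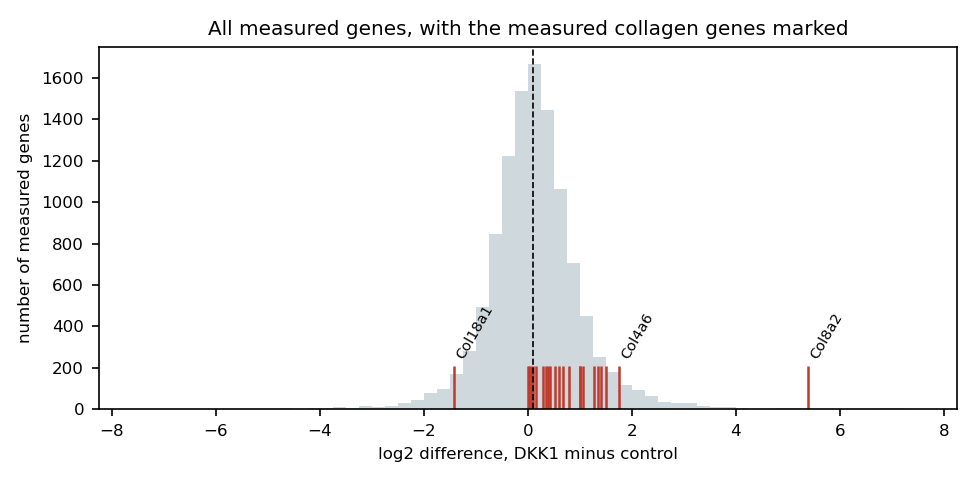
Histogram of the log2 difference, DKK1 minus control, over 11058 measured genes, with the 23 measured collagen genes as red ticks and the median of all measured genes (0.10) as a dashed line. Collagen ticks lie mostly right of the dashed line, with Col8a2 far from the rest (5.38, or 3.97 with its dim control signal raised to the filter). Col18a1, at −1.42, is the only collagen tick below 0. Scaled on poly-A controls the collagen median was −0.021.

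Fibrillar chains of the major types showed modest differences. Of 11 genes, 8 were measured, 2 were called higher and 0 lower, where 11.7% of all measured genes were called higher and 6.91% lower. The fibrillar median was 0.51, or −0.12 when scaled on poly-A controls. Col1a1 encodes the chain that is present in 2 copies in type I collagen. Its brighter probe set had a signal of 6263 on the DKK1 array and 2150 on the control array, and its dimmer one 1699 on the DKK1 array and 1640 on the control array. The probe sets thus differed by 1.54 and by 0.05, and the gene was not called at 0.79 with an SD of 1.05 between them. It was called higher with hybridisation scaling and with the brightest probe set alone (1.54). Col1a2 encodes the other type I chain. Its brightest probe set had 24640 on the DKK1 array and 31456 on the control array, the next 8926 on the DKK1 array and 8739 on the control array, and the dimmest 710 on the DKK1 array and 506 on the control array. The brightest was thus lower in DKK1 cells and the others were not, and the mean difference of Col1a2 was 0.05 with an SD of 0.41 between 3 probe sets.

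Col3a1 encodes the homotrimeric type III chain of soft tissues. Its probe sets had signals of 15312 and 1595 on the DKK1 array, against 12284 and 863 on the control array. Both were higher in DKK1 cells, by 0.32 and 0.87, under the 2-fold threshold, with a gene value of 0.59. Type V chains nucleate fibrils and set their width. Col5a1 had 7101 and 1246 on the DKK1 array against 5598 and 1062 on the control array, a difference of 0.28. Col5a2 had 12770 and 1654 on the DKK1 array, against 13186 and 982 on the control array. Only its dimmer probe set was higher in the DKK1 cells, and the gene value of Col5a2 was 0.35. Col5a3, a type V chain of narrower distribution, had 794 on the DKK1 array and 589 on the control array, a difference of 0.42. None of the chains of types I, III and V was therefore called, and under poly-A scaling Col1a2, Col3a1, Col5a1, Col5a2 and Col5a3 were all below 0.

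Both called fibrillar chains belong to the minor types. Col11a1 encodes a type XI chain, found in cartilage and in thin fibrils. Its probe sets had signals of 1050 and 418 on the DKK1 array, against 518 and 132 on the control array. Both were brighter on the DKK1 array, and the gene difference was 1.27, but the call ended with the brightest probe set alone, with the stricter filter and with poly-A scaling (0.66). Its partner chains in cartilage were dim on both arrays, Col11a2 at 13.1 on the DKK1 array and 12.4 on the control array, and Col2a1 at 19.9 on the DKK1 array and 22.7 on the control array. Col27a1 encodes a fibrillar chain of cartilage with an interrupted helix. Its probe sets had 357 and 304 on the DKK1 array, against 111 and 118 on the control array. They differed by 1.54 and 1.25, giving 1.40 for the gene, and its call ended only with poly-A scaling (0.81) among the 10 alternatives that gave it a value. Col24a1 was not measured, at 17.2 on the DKK1 array and 19.5 on the control array.

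**Figure D2:**
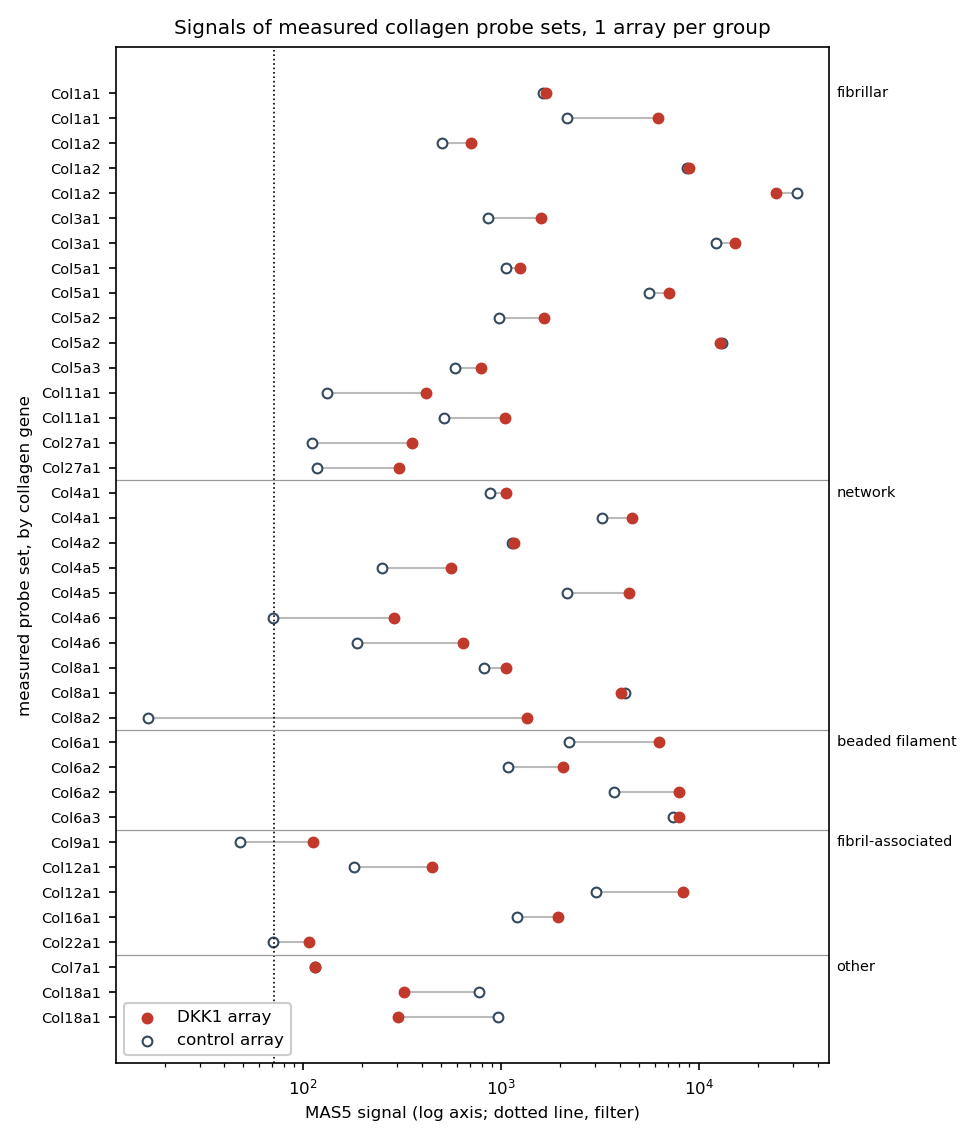
MAS5 signals (log axis) of the 38 measured collagen probe sets, filled red points for the DKK1 array and open points for the control array, 1 array each, grouped by kind of chain; the dotted line is the filter at 71.3. Col8a2 has the longest span, from below the filter on the control array to 1362 on the DKK1 array, while the brightest probe set of Col5a2 and the probe set of Col6a3 have nearly equal points.

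Network chains held the collagen gene farthest above the threshold and chains with almost no difference. Of 9 genes, 6 were measured, 3 were called higher and 0 lower, where 11.7% of all measured genes were called higher and 6.91% lower. The network median was 0.72, or 0.10 when scaled on poly-A controls. It was 0.38 without the filter, with the stricter filter, and with both arrays required to pass, which left out Col8a2. Type VIII collagen is a short-chain network collagen of vessel walls and of the membrane under the corneal endothelium, built from Col8a1 and Col8a2 products. The single Col8a2 probe set had a signal of 1362 on the DKK1 array and 16.5 on the control array. The control value was below the filter, so with the dim signal raised to 71.3 the gene was at least 19.1-fold higher in the DKK1 cells. Its fitted difference of 5.38 rests on that dim value and is no measured size. It was 3.97 with the dim signal raised, the lowest of the 10 alternatives that gave a value, and the call held in each of them. Col8a1 had signals of 4078 and 1063 on the DKK1 array, against 4260 and 824 on the control array. Its probe sets differed by −0.06 and 0.36, and Col8a1 was not called at 0.15. The partner chains of type VIII collagen thus had very different values on the same arrays.

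Type IV collagen is the scaffold of basement membranes, and its 6 genes lie in 3 head-to-head pairs. Col4a1 and Col4a2, whose products form the common network, had small differences. Col4a1 had 4619 and 1058 on the DKK1 array, against 3252 and 883 on the control array, a difference of 0.38. Col4a2 had 1165 on the DKK1 array and 1146 on the control array, a difference of 0.02. Neither was called, and with poly-A scaling both were below 0 (−0.25 and −0.61). Col4a5 and Col4a6, whose products join in networks of smooth muscle and some epithelia, were both called higher. Col4a6 had 646 and 288 on the DKK1 array, against 188 and 70.7 on the control array. Both its probe sets were brighter on the DKK1 array, by 1.69 and 1.80, with 1.748 for the gene, and the call held in the 10 alternatives that gave a value, from 1.16 to 2.09. Col4a5 had 4462 and 562 on the DKK1 array, against 2173 and 252 on the control array. Its probe sets were also both brighter on the DKK1 array, at 1.03 and 1.10, but its value of 1.07 was close to the threshold. That call ended with the larger pseudocount, with median centring and with poly-A scaling (0.44). In the pair formed by Col4a3 and Col4a4, whose products join that of Col4a5 in kidney, no probe set was measured. The brighter Col4a3 probe set had 86.4 on the DKK1 array and 43.0 on the control array, and Col4a4 reached no more than 21.2 on the DKK1 array and 12.1 on the control array. The remaining network gene, Col10a1 of hypertrophic cartilage, had 6.94 on the DKK1 array and 3.62 on the control array.

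The start regions of these pairs are shown because partner genes of 1 collagen type differed in their values. The sequences are 300 bases, 250 before and 50 after an annotated start, from RefSeq on mouse build GRCm38.p6, and are written in the direction of the gene. A window was matched by symbol for 33 of the 42 collagen genes. In the type VIII and in the Col4a6 and Col4a5 windows, capitals mark GC boxes (GGGCGG on either strand, overlapping matches joined). In the Col4a1 and Col4a2 windows, capitals mark the 78 bases that both windows share, read on opposite strands.
Col8a2, chr4:126286544-126286843, plus strand: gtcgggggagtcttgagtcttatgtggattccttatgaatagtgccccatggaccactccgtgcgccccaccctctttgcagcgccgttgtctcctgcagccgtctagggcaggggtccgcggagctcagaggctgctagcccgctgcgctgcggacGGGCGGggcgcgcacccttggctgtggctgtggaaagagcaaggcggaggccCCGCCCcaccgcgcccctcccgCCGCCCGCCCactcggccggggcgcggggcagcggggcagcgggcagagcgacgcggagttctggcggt
Col8a1, chr16:57754688-57754987, minus strand: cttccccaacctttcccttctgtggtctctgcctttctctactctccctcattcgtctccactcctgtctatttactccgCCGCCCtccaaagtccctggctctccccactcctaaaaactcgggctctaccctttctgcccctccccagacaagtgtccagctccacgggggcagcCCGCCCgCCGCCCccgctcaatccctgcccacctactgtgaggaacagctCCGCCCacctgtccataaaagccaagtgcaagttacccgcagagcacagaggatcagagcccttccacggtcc
Col4a6, chrX:141474027-141474326, minus strand: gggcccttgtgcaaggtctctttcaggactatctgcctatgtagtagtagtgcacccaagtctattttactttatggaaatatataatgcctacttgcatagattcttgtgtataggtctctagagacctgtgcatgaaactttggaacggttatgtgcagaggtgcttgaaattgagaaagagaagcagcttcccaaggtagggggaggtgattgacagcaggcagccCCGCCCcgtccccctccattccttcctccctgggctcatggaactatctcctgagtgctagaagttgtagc
Col4a5, chrX:141475169-141475468, plus strand: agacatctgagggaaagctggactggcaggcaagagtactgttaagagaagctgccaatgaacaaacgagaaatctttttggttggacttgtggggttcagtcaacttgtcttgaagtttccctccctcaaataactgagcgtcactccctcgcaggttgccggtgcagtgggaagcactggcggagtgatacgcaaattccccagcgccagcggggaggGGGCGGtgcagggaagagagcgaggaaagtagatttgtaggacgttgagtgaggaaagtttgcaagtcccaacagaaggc
Col4a1, chr8:11312777-11313076, minus strand: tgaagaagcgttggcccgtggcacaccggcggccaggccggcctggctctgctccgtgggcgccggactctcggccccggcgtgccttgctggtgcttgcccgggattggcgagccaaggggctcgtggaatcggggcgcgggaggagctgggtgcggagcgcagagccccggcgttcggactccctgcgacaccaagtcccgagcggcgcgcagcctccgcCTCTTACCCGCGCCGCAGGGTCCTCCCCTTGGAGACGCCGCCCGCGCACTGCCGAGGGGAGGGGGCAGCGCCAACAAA
Col4a2, chr8:11312555-11312854, plus strand: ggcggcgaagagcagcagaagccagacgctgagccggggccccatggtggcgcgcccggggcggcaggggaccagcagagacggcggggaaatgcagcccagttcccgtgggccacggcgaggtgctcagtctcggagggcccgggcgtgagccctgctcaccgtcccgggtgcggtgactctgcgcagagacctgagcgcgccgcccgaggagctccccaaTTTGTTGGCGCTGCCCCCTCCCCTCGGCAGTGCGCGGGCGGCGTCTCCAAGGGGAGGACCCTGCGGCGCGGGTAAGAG

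The starts of Col4a1 and Col4a2 are 21 bases apart on opposite strands of chromosome 8, so these genes share a start region. Those of Col4a6 and Col4a5 are 1343 bases apart on opposite strands of chromosome X, and their windows share no base. Within each of these pairs both genes lay on the same side of the 2-fold threshold, Col4a6 and Col4a5 above it and Col4a1 and Col4a2 below it. Only 18.6% of all measured genes were called either way, so most genes were uncalled like Col4a1 and Col4a2. The Col4a5 value was close to the threshold. The part of the start regions in these values was not tested. The Col8a2 and Col8a1 windows each hold 4 GC boxes and neither holds a CCAAT box, while Col8a2 was called and Col8a1 was not. Over the 36 collagen windows, 61.1% held a GC box, against 35.7% of all 32851 windows of that length. A CCAAT box (CCAAT on either strand) was in 36.1% of collagen windows and 37.4% of all windows. The letters CTTTGA, part of the site of the Wnt-responsive TCF/LEF factors, were found on either strand in 9 of 36 collagen windows and in 16.0% of all windows. Among the called genes those letters were in windows of Col6a1 and Col9a1, though not in every Col9a1 window. They were in no window of Col8a2, Col4a6, Col4a5, Col11a1, Col27a1 or Col18a1. Col12a1, also called, had no window to search. A match is a description of the letters and not a binding site.

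Type VI collagen forms beaded filaments around cells from the products of Col6a1, Col6a2 and a longer chain. Of 5 genes, 3 were measured, with 1 called higher and 0 lower, where 11.7% of all measured genes were called higher and 6.91% lower. The median of the 3 was 0.999 (0.36 when scaled on poly-A controls). Col6a1 had a signal of 6283 on the DKK1 array and 2217 on the control array. It was higher in DKK1 cells by 1.496, and its call ended only with poly-A scaling (0.86). Col6a2 had 7938 and 2063 on the DKK1 array, against 3716 and 1093 on the control array. Both probe sets were about equally brighter on the DKK1 array, at 1.09 and 0.91, and the gene value was just short of the threshold at 0.999. It was called under 4 alternatives, those without a pseudocount, with quantile normalization, with the hybridisation controls and with the brightest probe set. The dimmer of these probe sets is of a design that Affymetrix marks as open to cross-hybridisation. Col6a3, which encodes the longer chain, had 7983 on the DKK1 array and 7410 on the control array. Its difference was 0.11, so the 3 chains of type VI collagen differed unequally between the same arrays. The alternative long chains were dim, with Col6a4 at most at 70.0 on the DKK1 array and 16.3 on the control array and Col6a5 at 8.47 on the DKK1 array and 13.3 on the control array. Col6a1 and Col6a2 are neighbours on chromosome 10 and are read from the same strand, with starts 102640 bases apart.

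Among the fibril-associated chains, 4 of 9 genes were measured, 2 were called higher and 0 lower. Of all measured genes, 11.7% were called higher and 6.91% lower. The fibril-associated median was 0.84, or 0.27 when scaled on poly-A controls and 0.23 without the filter, where all 9 enter. Col12a1 encodes a long chain that binds type I fibrils in dense connective tissue and around bone. Its measured probe sets had signals of 8356 and 448 on the DKK1 array, against 3044 and 181 on the control array. Both were brighter on the DKK1 array, by 1.45 and 1.23, giving 1.34 for the gene. The call ended without the filter, where 2 dim probe sets enter, and with poly-A scaling. Col9a1, a chain of type IX collagen on cartilage fibrils, had 113 on the DKK1 array and 48.0 on the control array in its measured probe set. The control value was below the filter, so Col9a1 was at least 1.58-fold higher in DKK1 cells. Its difference of 1.001 lay on the threshold, and the call ended under 6 of 9 alternatives. The partner chains Col9a2 and Col9a3 were not measured, with Col9a2 at 9.16 on the DKK1 array and 5.45 on the control array and Col9a3 at most at 46.6 on the DKK1 array and 16.3 on the control array. Col16a1 had 1940 on the DKK1 array and 1203 on the control array, a difference of 0.68 that was not called. Col22a1, a chain of tissue junctions, had 108 on the DKK1 array and 70.4 on the control array in its 1 measured probe set, with a difference of 0.52 that was not called. Its other probe sets were below the filter, the brighter of them at 11.6 on the DKK1 array and 45.7 on the control array.

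**Figure D3:**
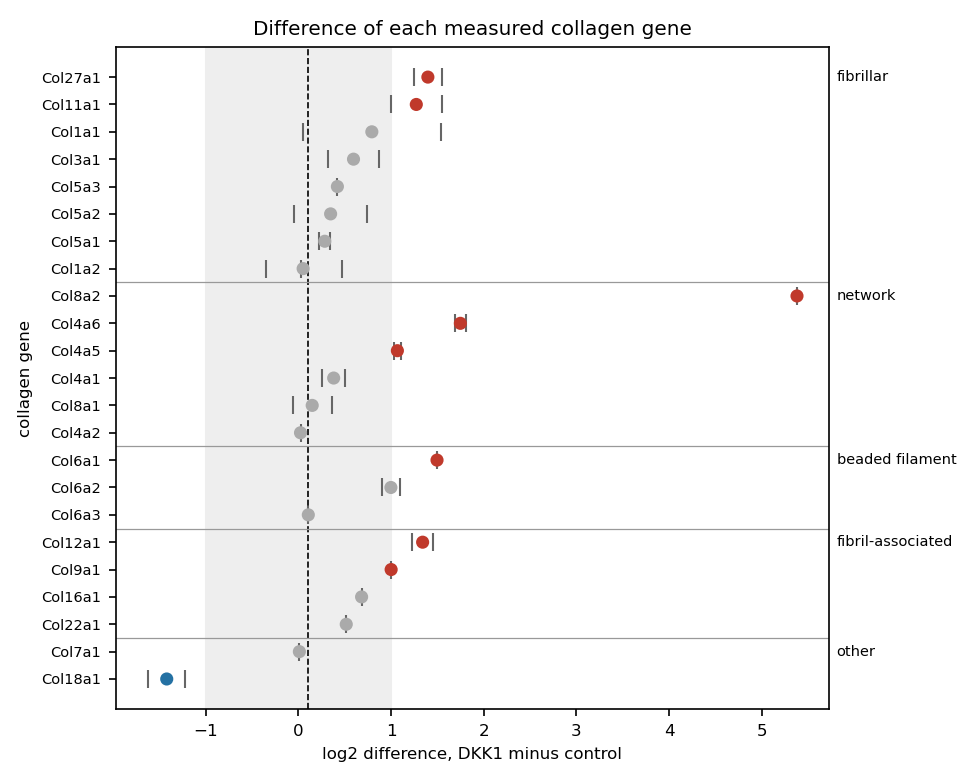
Log2 difference, DKK1 minus control, of the 23 measured collagen genes by kind of chain; points are gene means (red, called higher; blue, called lower; grey, not called), short vertical marks are measured probe sets, the shaded band is within 2-fold and the dashed line is the median of all measured genes (0.10). Col8a2 at 5.38 (3.97 with its dim control signal raised to the filter) and Col8a1 at 0.15, and Col6a1 at 1.496 and Col6a3 at 0.11, stand apart within their types; scaled on poly-A controls, 6 of the 8 higher calls ended.

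The other chains included the only collagen gene called lower. Col18a1 encodes a basement membrane chain whose C-terminal part is released as endostatin, an inhibitor of vessel growth. Its probe sets had signals of 323 and 303 on the DKK1 array, against 774 and 966 on the control array. Both were dimmer on the DKK1 array, by 2.39-fold and 3.19-fold, and the gene value was −1.42. Col18a1 was called lower under all 11 alternatives, from −2.04 to −1.06. One of its probe sets carries the suffix that Affymetrix gives to probes shared by several transcripts. Col7a1, which encodes the anchoring fibril chain of skin, had 116 on the DKK1 array and 115 on the control array, a difference of 0.01.

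The remaining 19 collagen genes were not measured, with 36 probe sets between 1.77 and 86.4 on the DKK1 array and between 1.48 and 55.4 on the control array. They comprised 3 fibrillar, 3 network, 2 beaded filament and 5 fibril-associated genes and 6 others, namely Col13a1, Col15a1, Col17a1, Col23a1, Col25a1 and Col26a1. No level can be ordered between the arrays at these signals. The filter separated members closely. Just inside were probe sets of Col9a1, Col22a1 and Col7a1 with mean signals of 80.4, 89.1 and 115, and just outside were another Col5a1 probe set, Col4a3 and Col20a1 with 65.0, 64.7 and 61.2.

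Genes that modify the chains held calls in both directions. The lists were written from general knowledge of collagen synthesis, with earlier results of these data known. In the modification list, 14 of 15 genes were measured, 3 were called higher and 2 lower, and the median was 0.03. Of all measured genes, 11.7% were called higher and 6.91% lower, so a list of this size would often hold calls in both directions. P4ha3, a catalytic subunit of prolyl 4-hydroxylase, had 417 on the DKK1 array and 30.8 on the control array, at least 5.84-fold higher in DKK1 cells. The other catalytic subunits went the opposite way. P4ha2 had 738 on the DKK1 array and 1647 on the control array, a difference of −1.14. P4ha1 had 868 and 110 on the DKK1 array, against 1924 and 205 on the control array, and was not called at −0.97. It passed the threshold without a pseudocount, with the stricter filter, median centring, quantile normalization, poly-A scaling (−1.57) and the brightest probe set (−1.13). Under the other alternatives it did not, with −0.62 for hybridisation scaling. In the complex for prolyl 3-hydroxylation, the members also differed in direction. P3h1, the enzyme, averaged 273 on the DKK1 array and 642 on the control array, and differed by −1.19 (SD 0.02 between 2 probe sets). Crtap, its partner without enzyme activity, had 3330 on the DKK1 array and 1521 on the control array, a difference of 1.12. P3h4, a related protein that takes part in lysine hydroxylation, had 5562 on the DKK1 array and 1214 on the control array, a difference of 2.18. Plod2, the lysyl hydroxylase of telopeptides, was not called at −0.46, with means of 924 on the DKK1 array and 1266 on the control array. The calls of P4ha2 and P3h1 ended with hybridisation scaling and that of Crtap with poly-A scaling. P3h4 kept its call under all 11 alternatives, and P4ha3 under the 9 that gave it a value.

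Of 11 folding and export genes 9 were measured and 0 called, where 18.6% of all measured genes were called either way, with a median of −0.05 and a range from −0.94 to 0.47. Serpinh1, which encodes the collagen chaperone HSP47, had 10568 and 7835 on the DKK1 array, against 10507 and 6422 on the control array, a difference of 0.15. Enzymes that trim and crosslink secreted collagen had a median of 0.94 (7 of 13 genes measured), with 3 called higher and 1 lower. That median is the value of 1 gene, Pcolce, with an SD of 1.16 between its 2 probe sets. Pcolce was at 0.30 with poly-A scaling and at 0.12 with the brightest probe set alone. Lox, the lysyl oxidase that starts crosslinking, had probe sets at 20320, 10104 and 142 on the DKK1 array, against 3053, 1421 and 41.0 on the control array. All were brighter on the DKK1 array, with 2.33 for the gene and an SD of 0.76, and Lox was called under all 11 alternatives, from 1.74 to 2.77. Its relatives Loxl1 (953 on the DKK1 array and 382 on the control array) and Loxl3 (3636 on the DKK1 array and 1517 on the control array) were higher by 1.28 and 1.25, and both calls ended with poly-A scaling, that of Loxl1 also without the filter (0.66). Pcolce2, an enhancer of propeptide cleavage, was lower at −1.27, with 77.4 on the DKK1 array and 210 on the control array, and its call ended with the larger pseudocount and with hybridisation scaling. Over these 3 lists of 39 genes, 30 were measured, 6 called higher and 3 lower, against 8 and 0 with hybridisation scaling and 3 and 8 with poly-A scaling. Of all measured genes, 11.7% were called higher and 6.91% lower as reported, 21.6% and 3.45% with hybridisation scaling, and 4.26% and 24.1% with poly-A scaling. The median of the 30 genes was 0.16 as reported and −0.44 with poly-A scaling.

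Of 10 collagen receptor genes, 6 were measured and 1 was called, a share near the 18.6% of all measured genes called either way. Itga1, the integrin subunit that pairs with Itgb1 to bind collagens including type IV, had 219 on the DKK1 array and 49.95 on the control array, at least 3.07-fold higher in DKK1 cells. The median of the 6 was 0.26.

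**Figure D4:**
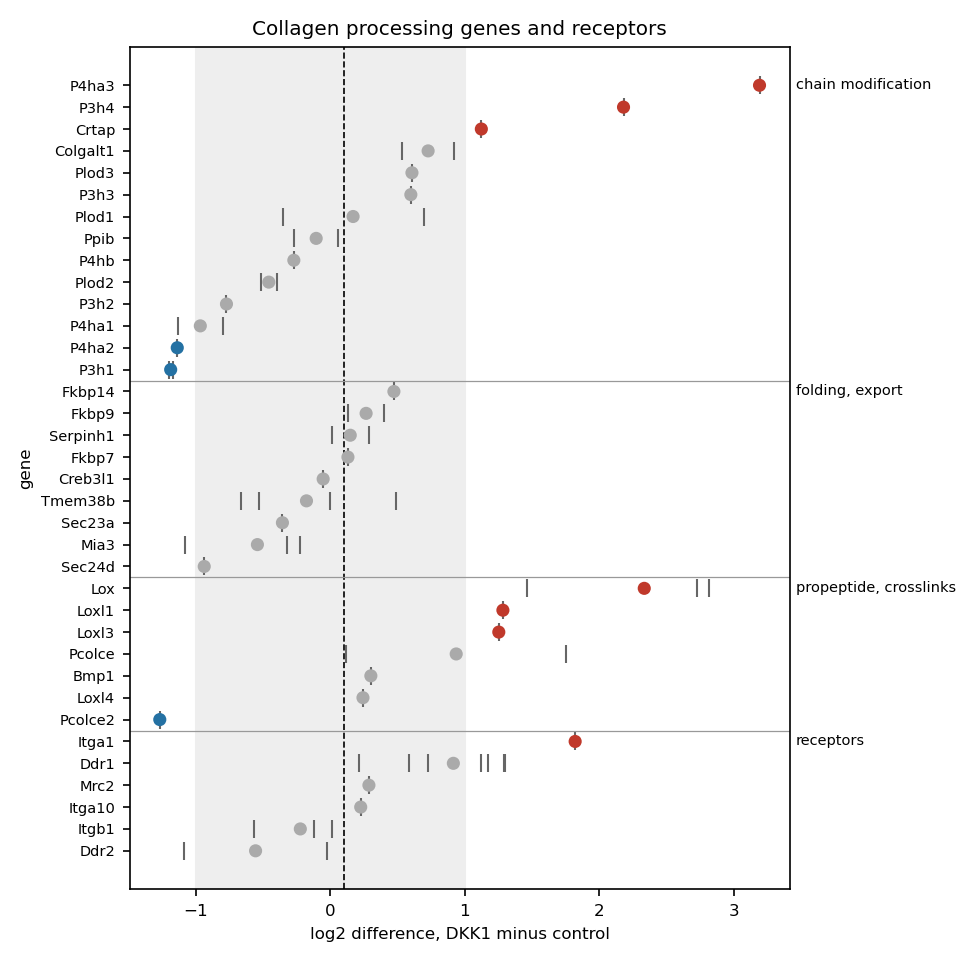
Log2 difference, DKK1 minus control, of measured genes for chain modification, folding and export, propeptide cleavage and crosslinking, and receptors; symbols, band and dashed line are drawn as in the plot of collagen differences. Lox lies right of the band at 2.33, as does P4ha3, whose control signal was below the filter, P3h1 and P4ha2 left of it at −1.19 and −1.14, and all folding and export genes inside it.

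Technical controls of different kinds differed in sign, so they leave the size of the scaling effect unsettled. Spike-ins that enter at hybridisation (18 probe sets) had a median log2 ratio of −0.37, DKK1 over control, from −0.59 to −0.24. Poly-A spike-ins, which pass through labelling (20 measured probe sets), had a median of 0.64, from 0.10 to 1.21. Between probe sets of a gene the pooled SD of the difference was 0.40 over 14 collagen genes with several measured probe sets and 0.45 over all 4978 such genes. It measures how far probes of a gene agreed on these arrays, and the spread between cultures is unknown.

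**Figure D5:**
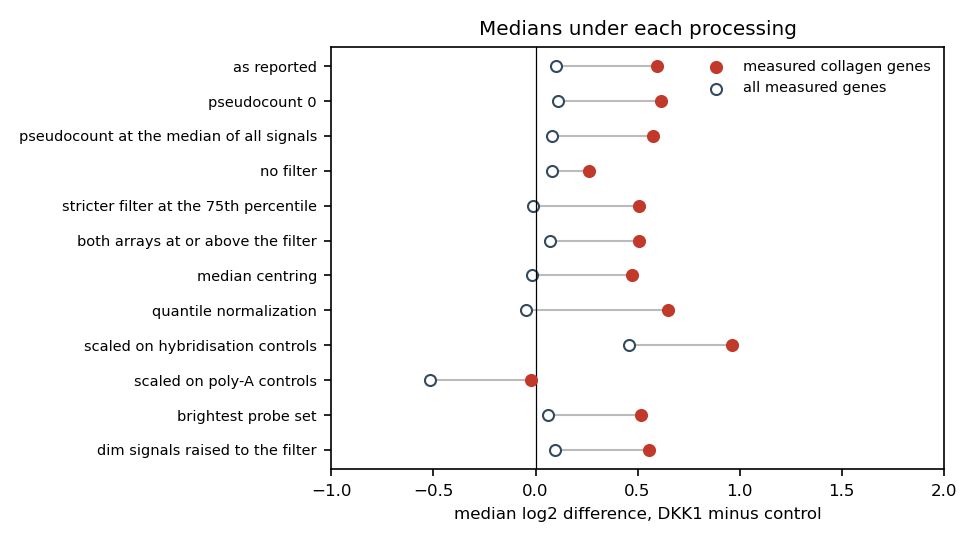
Median log2 difference, DKK1 minus control, under the reported processing and 11 alternatives, for measured collagen genes (filled red) and all measured genes (open). The collagen point lies right of the open point in each row, by 0.18 to 0.70, and is at −0.021 with the poly-A controls, where the median of all genes is −0.52. Median centring and scaling on controls move both points nearly alike, so those rows could hardly change the gap.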

How the data were processed

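Total RNA of 1 DKK1 and 1 control sample was labelled from 500 ng by a 3' in vitro transcription protocol and hybridised to 1 Affymetrix mouse array each, per the labels' protocols. The authors deposited intensity values on a linear scale, 1 signal for each of 45101 probe sets, made with MAS5, per the submitters' processing notes. No version or setting of MAS5 is given in the sources used here. After leaving out the top and bottom 2% of signals, the mean was 500.0 on either array, the usual mark of per-array scaling.

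Gene symbols came from the platform annotation, with 34958 probe sets carrying 1 symbol, of which 34754 matched the RefSeq table of GRCm38.p6 by gene ID and 0 changed symbol. Signals were analysed in Python 3.11.15 with numpy 2.4.6 and pandas 2.3.3. The pseudocount of 16.6 is the 25th percentile of all signals, and the filter of 71.3 left 19360 probe sets with 1 symbol for 11058 genes. The calculation was run on simulated data with planted differences far above the threshold. That checks the code and not the calls reported here, many of which lie near the threshold. Alternatives changed the pseudocount, the filter, the scaling, the choice of probe set or the treatment of dim signals. Every measured collagen gene is named, and from other lists the called genes with the largest differences, up to 5 each, with Serpinh1, Lox, Plod2 and P4ha1 in any case. Other genes named, among them the markers and dim partner chains, came from the fixed lists. The members and lists were chosen with earlier results of these data known. The number of arrays limits the precision. Any batch is confounded with group and cannot be told apart from it.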

Additional observations from a re-analysis of the deposited data

How the results depend on the processing

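With 1 array per group no replicate could be left out, and no paired analysis was possible because each group has 1 array and no test was run. With the poly-A controls the median of collagen genes was −0.021 and that of fibrillar chains −0.12, both of opposite sign to the reported values, the network median was 0.10 and the fibril-associated median 0.27, and 2 collagen genes were called higher. The stricter filter left 4 called higher, with fewer collagen genes measured (18). Of all 7097 genes measured at that setting, 10.0% were called higher. Without the filter the fibril-associated median was 0.23, since 5 dim genes enter. The median of type VI chains was 0.36 and that of the processing genes −0.44 with poly-A scaling, and 5 processing genes were called lower with median centring, against 3 as reported. The collagen median exceeded that of all genes by 0.49 as reported, 0.18 without the filter and 0.70 with quantile normalization. The other counts of collagen genes called stayed within 1.5 times of those reported. Of 245 collagen gene values under the alternatives, 16 ended a call, 7 gained one and 0 of the called values changed sign. Over all genes the higher share of calls was 62.9% as reported, 51.4% with median centring, 49.8% with quantile normalization, 86.2% with hybridisation and 15.0% with poly-A scaling. Calls of Col8a2, Col4a6 and Col18a1 held under every alternative that gave them a value. MAS5 signals below the filter are too noisy to order, and no detection calls were used here.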

Other observations

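Probe sets of 1 collagen gene did not always give the same size of difference. Of 14 collagen genes with several measured probe sets, 11 had all of them on 1 side of 0, and Col1a2, Col5a2 and Col8a1 did not. The widest gap was in Col1a1, with probe sets at 1.54 and 0.05. The brightest probe set gave the lowest difference in 8 of the 14 genes, among them Col1a2, Col3a1, Col5a2 and Col8a1, and the highest in the other 6, among them Col1a1, Col6a2 and Col12a1. The cause was not tested.

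Neighbouring collagen genes could be set side by side in 4 pairs with both genes measured. The differences were 1.748 and 1.07 for Col4a6 and Col4a5, 1.496 and 0.999 for Col6a1 and Col6a2, 0.59 and 0.35 for Col3a1 and Col5a2, and 0.38 and 0.02 for Col4a1 and Col4a2. No test was made of whether neighbours are closer to each other than other collagen genes.

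Pcolce, an enhancer of the enzyme that removes the propeptide from fibrillar collagen, was chosen after its values were seen. Its probe sets had 32540 and 16508 on the DKK1 array, against 30016 and 4881 on the control array, and differed by 0.12 and 1.755.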
